A study of Rattus norvegicus with 8 samples.

Results

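The report concerns 10 genes of the Notch pathway in H9c2 cells, a line of myoblasts from rat heart: the ligands Dll1, Jag1 and Jag2, the receptors Notch1, Notch2 and Notch3, the nuclear partner Rbpj and the effectors Hes1, Hey1 and Heyl. They were taken by gene symbol from a deposited table of 40994 genes, in which each symbol has 1 row. The list was chosen on results of the same comparison that is described here, so the members' differences between the groups are a description and carry no test. The study compared 4 libraries made after 6 h of OxPAPC at 100 µg/ml with 4 libraries from cells given vehicle, all from unmodified cells used at passage 6 and sharing 1 batch date. OxPAPC is an oxidised form of PAPC, a phospholipid of membranes and lipoproteins. The libraries are called by the numbers of their titles, OxPAPC 2, 9, 16 and 23 and vehicle 1, 8, 15 and 22, and the labels do not say that they came from separate cultures, so the spread between them may be partly technical. The duration of the vehicle treatment is not stated.

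Notch is a pathway of contact between neighbouring cells. A Delta or Jagged ligand on one cell binds a Notch receptor on the next, the receptor is cut first by a metalloprotease and then by gamma-secretase, and its intracellular part enters the nucleus, where it joins the DNA-binding protein RBPJ and coactivators of the Mastermind family. The genes switched on include the HES and HEY repressors of the basic helix-loop-helix family. In skeletal muscle the pathway is known for holding myoblasts back from differentiation, and in the developing heart for shaping valves and trabeculae. A messenger RNA level shows neither ligand on the cell surface nor receptor cleavage.

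Read totals were 15.4 to 21.7 M counts per library. Of 13206 genes with enough counts to test, 34.3% were called at an adjusted p under 0.05 by edgeR's quasi-likelihood test over all genes, 17.9% higher and 16.4% lower in OxPAPC. That balance depended on scaling and unit, since 2369 genes were called higher and 2164 lower with TMM factors, 1829 higher and 2723 lower with upper-quartile factors, and 1715 higher and 2349 lower with limma on log2(FPKM + 1). The CPM of the 2 groups did not overlap for 32.4% of the tested genes. CPM is counts per M counts of the scaled library. Among 8 markers of skeletal myoblasts, myogenin (Myog), the factor of terminal differentiation, was lower in OxPAPC (40.0 ± 1.46 CPM, against 95.1 ± 5.67 CPM in vehicle, SD, n = 4 each, edgeR adjusted p = 3.08e-15), and Myod1 was higher (94.1 ± 3.85 CPM in OxPAPC, against 85.9 ± 3.55 CPM in vehicle, edgeR adjusted p = 0.0168). The summed list ran from 358.1 to 383.5 CPM in OxPAPC and from 415.8 to 434.2 CPM in vehicle. No other gene of the list was called. Cdh15, its largest part, had 186 ± 6.48 CPM in OxPAPC and 194 ± 7.15 CPM in vehicle, and Myf5, Myf6 and Pax7 were too scarce to test. Of 8 cardiomyocyte markers all had a count, but the adult contractile gene Myh6 had 1 count over the OxPAPC and 2 over the vehicle libraries. Over the same libraries Ryr2 had 1 and 2 counts, Myl7 0 and 4, and Nppa 4 and 3. Cardiac troponin T (Tnnt2) had 113 ± 2.99 CPM in OxPAPC and 128 ± 7.28 CPM in vehicle (SD, n = 4 each). It was the only one of the list called, lower in OxPAPC (edgeR adjusted p = 0.00165). That list summed to 122.4 to 130.5 CPM in OxPAPC and 132.6 to 149 CPM in vehicle, most of it Tnnt2. Of 6 smooth muscle markers 5 were lower in OxPAPC (Cnn1, Acta2, Tagln, Smtn and Mylk), and their sum was 6519 to 6817 CPM in OxPAPC against 8152 to 8367 CPM in vehicle. Of 7 fibroblast markers 2 were called, Col1a2 and Thy1, both lower in OxPAPC, and the list summed to 84412 to 89283 CPM in OxPAPC and 87344 to 91680 CPM in vehicle. Endothelial markers summed to 0.466 to 1.77 CPM in OxPAPC and 0.51 to 1.69 CPM in vehicle, with Cdh5, Kdr, Emcn and Cldn5 at 0 in all 8 libraries. Leukocyte markers summed to 22.1 to 24.2 CPM in OxPAPC and 23.9 to 26.8 CPM in vehicle, with Ptprc and Adgre1 at 0. Nearly all of that sum was Cd14, with 21.5 ± 0.963 CPM in OxPAPC and 23.9 ± 1.39 CPM in vehicle (SD, n = 4 each). The part of these markers in the members' differences was not tested. In bulk RNA, fewer cells of a kind and less RNA per cell cannot be told apart.

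Of the 10 members, 9 had enough counts to be tested and Jag2 did not. Among those 9, 4 were called higher in OxPAPC (Notch1, Jag1, Rbpj and Notch3), 1 was called lower (Dll1) and 4 were not called (Notch2, Hes1, Hey1 and Heyl), beside the 34.3% of all tested genes called. The groups did not overlap in CPM for 4 members, Notch1, Jag1 and Rbpj above and Dll1 below, beside the 32.4% of all tested genes. Nothing is read from these counts, since the same comparison chose the list. The median log2 fold change was 0.14 over the 9 tested members, beside 0.0022 over all tested genes, and the median absolute one was 0.24, beside 0.15.

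**Figure D1:**
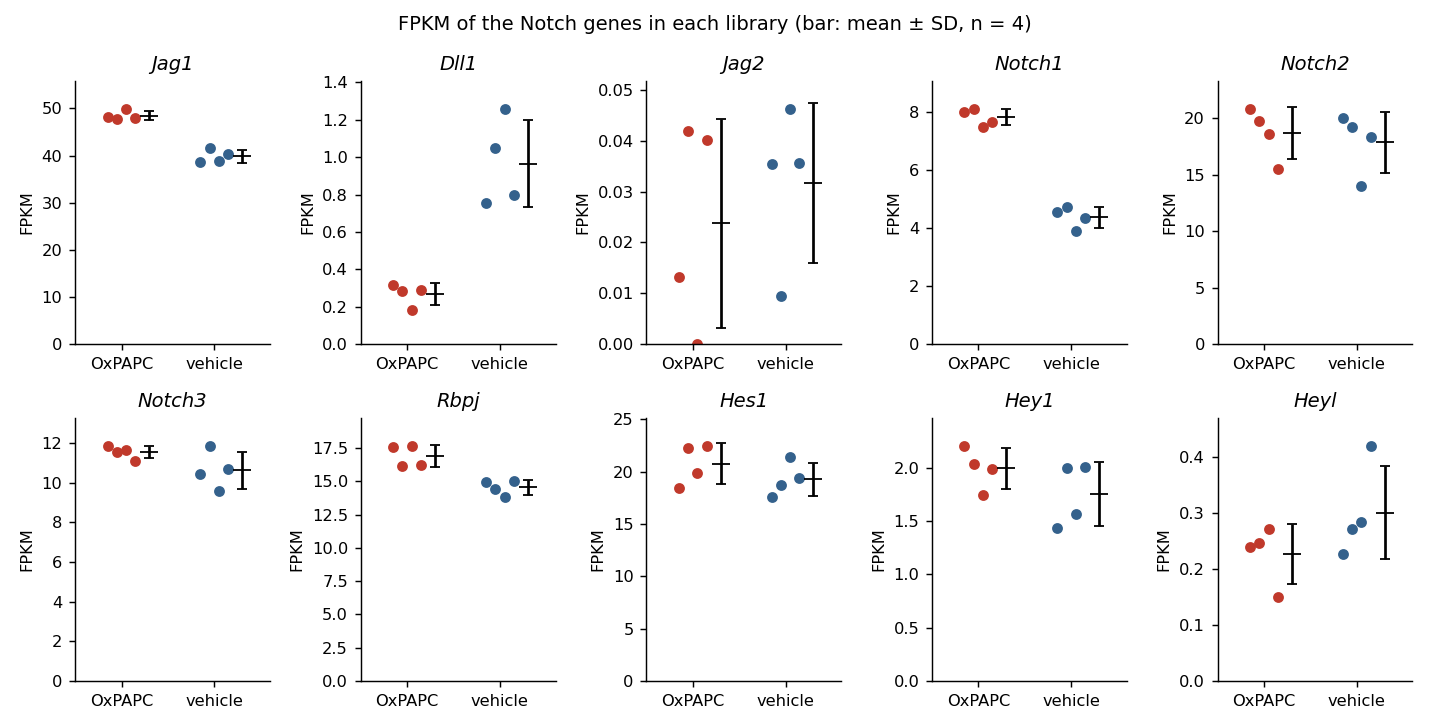
FPKM (fragments per kb of gene and M counts, as deposited) of each of the 10 genes in each library, OxPAPC in red and vehicle in blue, with the mean ± SD of 4 libraries beside the points and a separate linear scale from 0 for each gene. Notch1 lies at 7.50 to 8.10 in OxPAPC and 3.89 to 4.72 in vehicle, and Dll1 at 0.182 to 0.316 in OxPAPC and 0.755 to 1.26 in vehicle.

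Promoter windows of the RefSeq assembly GRCr8, from 250 bases before to 50 after a gene's start, were found for 9 of the 10 members, 11 windows in all, since Jag2 and Rbpj have 2 starts each. Those of the member with the largest fall (Dll1), of the textbook effector (Hes1) and of the member with the largest rise (Notch1) are shown. Each is written on its gene's strand, with the letters TGGGAA or their complement TTCCCA, the core of the RBPJ recognition sequence, in capitals. The windows are chr1:64993225-64993524 for Dll1, chr11:84212996-84213295 for Hes1 and chr3:29721564-29721863 for Notch1, all on the minus strand.
Dll1: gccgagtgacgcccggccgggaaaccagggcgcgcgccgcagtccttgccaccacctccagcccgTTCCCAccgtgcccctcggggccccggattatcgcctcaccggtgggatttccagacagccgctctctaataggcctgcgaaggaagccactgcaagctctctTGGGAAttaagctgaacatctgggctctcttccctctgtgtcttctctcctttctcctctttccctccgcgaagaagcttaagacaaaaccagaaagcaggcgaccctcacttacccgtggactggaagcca
Hes1: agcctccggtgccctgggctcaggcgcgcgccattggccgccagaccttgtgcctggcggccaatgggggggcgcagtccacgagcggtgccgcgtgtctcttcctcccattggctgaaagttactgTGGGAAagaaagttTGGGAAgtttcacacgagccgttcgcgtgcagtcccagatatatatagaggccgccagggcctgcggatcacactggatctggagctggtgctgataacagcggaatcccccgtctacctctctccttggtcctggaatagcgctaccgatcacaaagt
Notch1: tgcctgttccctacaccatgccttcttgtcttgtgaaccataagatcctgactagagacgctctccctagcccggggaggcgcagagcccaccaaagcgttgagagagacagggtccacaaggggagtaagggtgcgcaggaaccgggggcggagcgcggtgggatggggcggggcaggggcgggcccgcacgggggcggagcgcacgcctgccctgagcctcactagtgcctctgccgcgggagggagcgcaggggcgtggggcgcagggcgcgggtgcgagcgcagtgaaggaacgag

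The Dll1 window held the core in one orientation beginning 185 bases and in the other beginning 82 bases before the start. The Hes1 window held it in the same orientation beginning 123 and 109 bases before the start, and the Notch1 window held none. Over the 11 windows, 5 held it, those of Dll1, Hes1, Notch3 and both of Rbpj, which overlap and share 1 match. The same letters stood in 25.7% of all 33469 windows of that length. The N-box CACNAG, a sequence that HES proteins can bind, was in the windows of Hes1, Notch1 and Notch3 and in 43.1% of all windows, searched on both strands. The antioxidant response element core TGACNNNGC, which NRF2 binds with small MAF proteins, was in 0 of the 11 windows and in 12.1% of all windows. Such matches are descriptions of these letters only. The windows of Dll1, Hes1 and Notch1 had 60.7%, 60.3% and 69% G and C, beside a median of 51.7% over all windows.

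The ligands differed in level by orders of magnitude, and the abundant and the scarce one differed between the groups in opposite directions. Jag1, a Jagged ligand and by far the most abundant of the 3, had 48.2, 47.8, 49.8 and 48 FPKM in the libraries OxPAPC 2, 9, 16 and 23, against 38.7, 41.7, 38.8 and 40.4 FPKM in vehicle 1, 8, 15 and 22. Each OxPAPC library lay above each vehicle library. The mean was 48.4 ± 0.94 FPKM in OxPAPC and 39.9 ± 1.39 FPKM in vehicle (SD, n = 4 each). On the counts the log2 fold change was 0.31 ± 0.03 (SE), or 1.24-fold. Jag1 (gene 29146) lies on chromosome 3 from 124406794 to 124442220 on the minus strand in the coordinates of the count table, for which no source used here names a genome build and which hold for the members below too.

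Dll1, a Delta ligand, was scarce and lower after OxPAPC. It had 15, 17, 9 and 18 counts in OxPAPC 2, 9, 16 and 23, against 40, 70, 68 and 42 counts in vehicle 1, 8, 15 and 22. As deposited these were 0.316, 0.285, 0.182 and 0.288 FPKM in the OxPAPC libraries, against 0.755, 1.05, 1.26 and 0.798 FPKM in the vehicle libraries. The highest OxPAPC library stood below the lowest vehicle library. The log2 fold change was −1.81 ± 0.25 (SE), so that the OxPAPC level was 0.285 times that of vehicle, and 6 of the 13206 tested genes had a larger fall. With log2(FPKM + 1) in place of the counts the change was −0.63, since such an offset shrinks changes of scarce genes. Dll1 (gene 84010, chromosome 1, 56312062 to 56320177, minus strand) shares 163 bases with Fam120b on the other strand. Whether counting used strand is not known, so some of the few Dll1 counts may belong to Fam120b, which had 3168 counts over the OxPAPC and 3184 over the vehicle libraries and a log2 fold change of 0.07 ± 0.05 (SE; edgeR adjusted p = 0.323).

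Jag2, the other Jagged ligand (gene 29147, chromosome 6, 131983056 to 132005359, minus strand), was barely detected. It had 1, 4, 0 and 4 counts in OxPAPC 2, 9, 16 and 23, and 3, 1, 4 and 3 counts in vehicle 1, 8, 15 and 22. The groups overlapped, and no difference could be seen at this depth. In the summed FPKM of the 3 ligands Jag1 made up 99.4 ± 0.158% in OxPAPC and 97.6 ± 0.582% in vehicle (SD, n = 4 each). Dll1 made up 0.551 ± 0.128% in OxPAPC and 2.36 ± 0.572% in vehicle. The sum itself was 48.1 to 50 FPKM in OxPAPC and 39.5 to 42.7 FPKM in vehicle, and the groups did not overlap.

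Among the receptors, which are large single-pass membrane proteins, Notch1 was the least abundant of the 3 and had the largest difference. It had 8, 8.10, 7.50 and 7.67 FPKM in OxPAPC 2, 9, 16 and 23, against 4.54, 4.72, 3.89 and 4.34 FPKM in vehicle 1, 8, 15 and 22. The lowest OxPAPC library was above the highest vehicle library. The log2 fold change was 0.86 ± 0.05 (SE), or 1.82-fold, and 189 of the tested genes had a larger rise. Notch1 (gene 25496) lies on chromosome 3 from 9277955 to 9323531 on the minus strand, and overlaps no other gene of the table.

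Notch2, the most abundant receptor, had 20.8, 19.7, 18.6 and 15.5 FPKM in OxPAPC 2, 9, 16 and 23, and 20, 19.2, 14 and 18.3 FPKM in vehicle 1, 8, 15 and 22. The groups overlapped, and OxPAPC 23 and vehicle 15 were the lowest library of each group. The log2 fold change was 0.09 ± 0.15 (SE), and the gene was not called. Over the libraries left out singly it ran from −0.02 (without vehicle 15) to 0.17 (without OxPAPC 23). Without both OxPAPC 23 and vehicle 15 it was 0.07 ± 0.04 (SE). These 2 libraries also had the lowest levels of long transcripts. Over the 1617 tested genes of at least 8000 bases, the median deviation of log2 CPM from the gene's own group mean was −0.06 in OxPAPC 23 and −0.07 in vehicle 15, and from −0.0037 to 0.05 in the other 6 libraries. Notch2 (gene 29492, chromosome 2, 185610594 to 185744088, plus strand) has 10723 bases of transcript and deviated by −0.27 and −0.34 there. Notch1, with 10556 bases, deviated by −0.03 in OxPAPC 23 and −0.17 in vehicle 15. The part of this in the Notch2 values was not tested beyond the values without these libraries.

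Notch3, a receptor known from vascular smooth muscle, had 11.9, 11.6, 11.6 and 11.1 FPKM in OxPAPC 2, 9, 16 and 23, and 10.4, 11.9, 9.57 and 10.7 FPKM in vehicle 1, 8, 15 and 22. Vehicle 8 was above 3 of the OxPAPC libraries, so the groups overlapped, and the log2 fold change was 0.14 ± 0.05 (SE). Its place among the called genes held in only 5 of 18 alternatives. It was lost when any 1 of OxPAPC 2, 9 or 16 or vehicle 1, 15 or 22 was left out, with log2 fold changes of 0.09 to 0.14. Notch3 (gene 56761) lies on chromosome 7 from 11132984 to 11184025 on the minus strand.

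The makeup of the receptor messages shifted towards Notch1. Notch1 made up 20.6 ± 1.22% of the summed FPKM of the 3 receptors in OxPAPC and 13.3 ± 0.561% in vehicle (SD, n = 4 each). The ranges were 19.7 to 22.4% in OxPAPC and 13 to 14.2% in vehicle and did not overlap. Notch2 made up 48.9 ± 2.6% in OxPAPC and 54.2 ± 2.59% in vehicle, and Notch3 30.5 ± 1.51% in OxPAPC and 32.5 ± 2.11% in vehicle. The ranges of both overlapped. The summed FPKM of the 3 was 34.3 to 40.7 in OxPAPC and 27.4 to 35.8 in vehicle, which overlapped as well. Notch4, the fourth receptor, known from endothelium, had 59 counts over the OxPAPC and 60 over the vehicle libraries and a log2 fold change of 0.05 ± 0.32 (SE; edgeR adjusted p = 0.926).

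**Figure D2:**
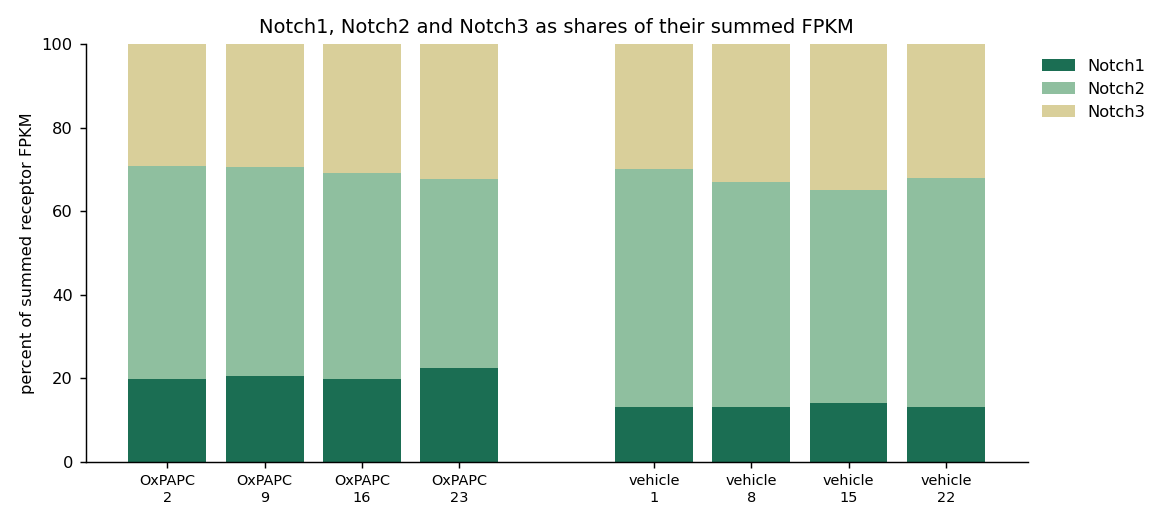
Share of Notch1, Notch2 and Notch3 in their summed FPKM, in percent, for each library, OxPAPC on the left and vehicle on the right. The share of Notch1 is 19.7 to 22.4% in the OxPAPC libraries and 13 to 14.2% in the vehicle libraries.

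**Figure D3:**
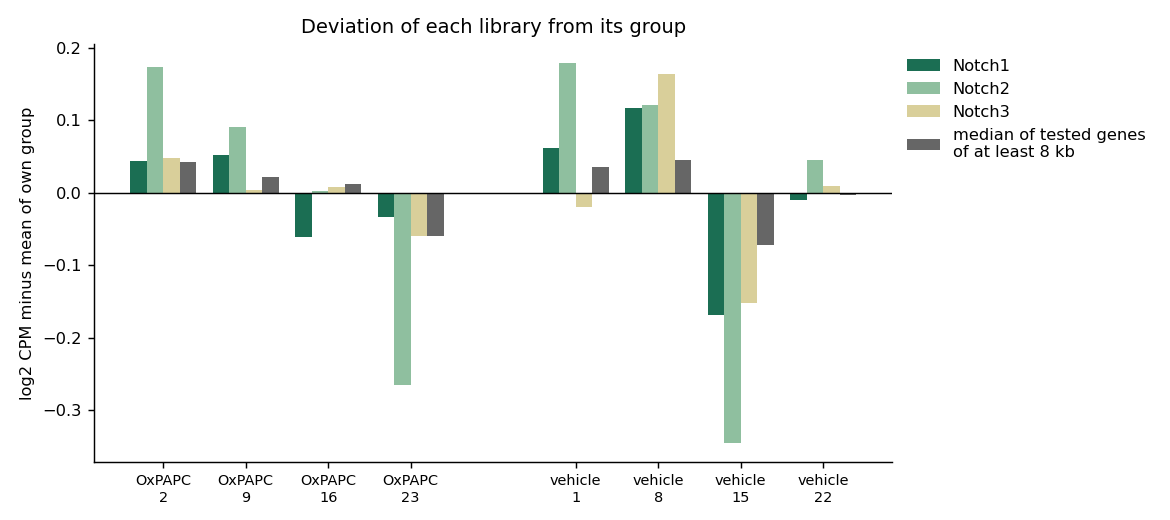
Log2 CPM of each receptor minus the mean of its own group, by library, beside the median of the same measure over the 1617 tested genes of at least 8000 bases. Notch2 is low in OxPAPC 23 (−0.27) and vehicle 15 (−0.34), where the median of the long genes is lowest too.

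Rbpj, the DNA-binding protein through which cleaved Notch acts, was also higher. It had 17.6, 16.1, 17.7 and 16.2 FPKM in OxPAPC 2, 9, 16 and 23, against 14.9, 14.4, 13.8 and 15.1 FPKM in vehicle 1, 8, 15 and 22. Each OxPAPC library exceeded each vehicle library. Its log2 fold change was 0.24 ± 0.04 (SE), or 1.18-fold. Rbpj (gene 679028) lies on chromosome 14 from 57338493 to 57523330 on the minus strand. Its relative Rbpjl had only 9 counts over the OxPAPC and 14 over the vehicle libraries.

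None of the effectors was called with all libraries, and for each of the 3 the groups overlapped. Hes1, a repressor that is a direct Notch target in many tissues, had 18.5, 22.2, 19.9 and 22.4 FPKM in OxPAPC 2, 9, 16 and 23, and 17.6, 18.7, 21.4 and 19.3 FPKM in vehicle 1, 8, 15 and 22. The groups overlapped, with OxPAPC 2 lower than vehicle 8, 15 and 22. The log2 fold change was 0.14 ± 0.07 (SE). It was 0.19 without OxPAPC 2 and 0.19 without vehicle 15. Hes1 was called higher in these 2 of the 18 alternatives and in no other. Hes1 (gene 29577) is a short gene on chromosome 11, from 70705763 to 70708176 on the minus strand.

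Hey1, a HEY repressor of the heart and vessels, had 2.21, 2.04, 1.75 and 1.99 FPKM in OxPAPC 2, 9, 16 and 23, and 1.43, 2, 1.57 and 2.01 FPKM in vehicle 1, 8, 15 and 22. The groups overlapped and the log2 fold change was 0.21 ± 0.15 (SE). It was 0.12 without vehicle 1, and 0.13 with limma on log2(FPKM + 1). Heyl, another member of the HEY family, had 0.24, 0.247, 0.271 and 0.15 FPKM in OxPAPC 2, 9, 16 and 23, and 0.227, 0.271, 0.284 and 0.42 FPKM in vehicle 1, 8, 15 and 22. The groups overlapped, with OxPAPC 23 lowest and vehicle 22 highest, and the log2 fold change was −0.39 ± 0.29 (SE). It was −0.22 without OxPAPC 23, −0.19 without vehicle 22, −0.24 without OxPAPC 23 and vehicle 15, and −0.08 with limma on log2(FPKM + 1). Heyl had only 14 to 33 counts per library. Heyl (gene 313575, chromosome 5, 135508160 to 135525152, plus strand) shares 6408 bases of its span with the noncoding gene LOC108351027 on the other strand, which had 73 counts over the OxPAPC and 111 over the vehicle libraries, so the counts of both are uncertain. Hey1 (gene 155437, chromosome 2, 93096706 to 93100316, plus strand) overlaps no other gene of the table.

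**Figure D4:**
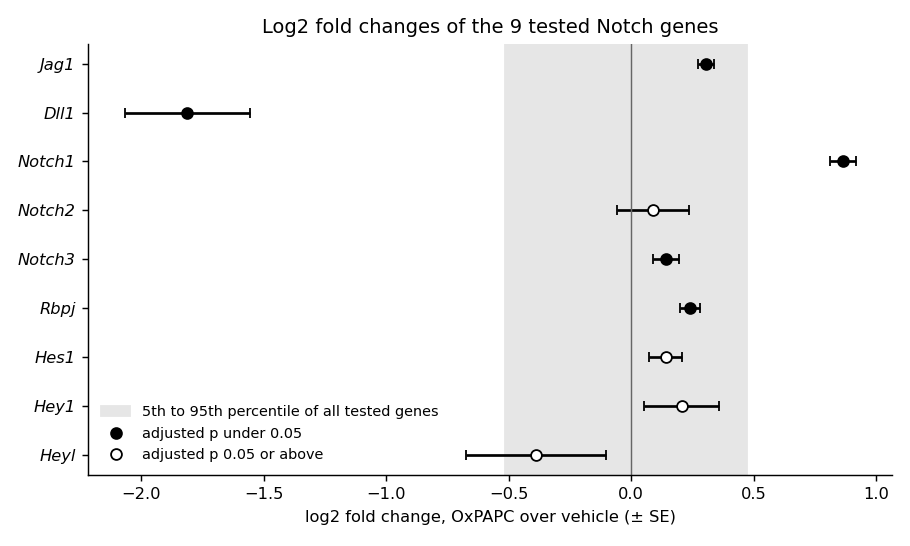
Log2 fold change, OxPAPC over vehicle, with its SE for the 9 tested members; filled points have an adjusted p under 0.05 in the fit over all genes, and the grey band spans the 5th to 95th percentile of all tested genes (−0.51 to 0.47). Dll1 (−1.81) and Notch1 (0.86) lie outside the band, and the other 7 lie inside it.

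By level per length, the order in OxPAPC was Jag1, Hes1, Notch2, Rbpj, Notch3, Notch1, Hey1, Dll1, Heyl and Jag2. Ranges over the libraries overlapped between Hes1 and Notch2, between Notch2 and Rbpj and between Dll1 and Heyl. In vehicle the order was the same, and the neighbours whose ranges overlapped were Hes1 and Notch2, and Notch2 and Rbpj. Dll1 lay above Heyl in vehicle without overlap (0.755 to 1.26 FPKM against 0.227 to 0.42 FPKM).

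The rest of the pathway was described through 92 further genes listed by role, of which 79 could be tested. These lists were also written with earlier results of these data known, so their counts and p-values are no independent evidence. Of the 79, 17 were higher in OxPAPC, 15 lower and 47 not called, so 40.5% were called beside 34.3% of all tested genes. Their median log2 fold change was 0.06 and the median absolute one 0.14, beside 0.15 over all tested genes. A set of 20 genes, 11 higher and 9 lower, was called in each of the 18 alternatives run. The other 12 lost their call in at least 1. Without vehicle 1, 9 genes were called lower instead of 15, and with limma on log2(FPKM + 0.1), 11 were called higher instead of 17. In what follows a value with no unit before an adjusted p is a log2 fold change, OxPAPC over vehicle, ± SE, and adjusted p-values are from edgeR over all tested genes. A call lost on leaving out 1 library is given with the range of its adjusted p in those fits. The counts of calls by list stand beside 17.9% of all tested genes called higher and 16.4% called lower. Nothing is read from them.

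Of the machinery that cuts the receptor, 7 genes were tested and none was called lower, beside 16.4% of all tested genes called lower. The metalloprotease Adam17, which can make the first cut, was higher, with 70.8 ± 1.61 CPM in OxPAPC and 58.9 ± 3 CPM in vehicle (SD, n = 4 each; log2 fold change 0.26 ± 0.04, SE, edgeR adjusted p = 6.9e-05). Each OxPAPC library was above each vehicle library. Nicastrin (Ncstn), the subunit with the highest CPM, did not pass (0.03 ± 0.03, edgeR adjusted p = 0.495), and Aph1b was too scarce to test.

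Genes that modify the receptor before it reaches the surface had 1 rise and 3 falls among 6 tested. The glycosyltransferase Eogt, which adds N-acetylglucosamine to receptor repeats, was lower in OxPAPC (42.4 ± 0.599 CPM, against 52.3 ± 2.16 CPM in vehicle, SD, n = 4 each), with a log2 change of −0.30 ± 0.05 (edgeR adjusted p = 3.1e-05). Furin, the protease that cuts receptors in the Golgi, rose by 0.14 ± 0.03 (edgeR adjusted p = 0.00196), a call lost with limma on log2(FPKM + 1) or log2(FPKM + 0.1) (0.0578 to 0.0729). Poglut1 (−0.13 ± 0.04, edgeR adjusted p = 0.0235) and the fringe gene Rfng (−0.19 ± 0.07, edgeR adjusted p = 0.0322) were lower. Poglut1 was not called without any 1 of OxPAPC 2, OxPAPC 16, vehicle 1 or vehicle 8 (adjusted p of 0.0622 to 0.0919), and Rfng with any 1 library but vehicle 8 left out (0.0524 to 0.0922). The fringe gene Lfng, with the highest CPM of those not called, came to 0.02 ± 0.05 (edgeR adjusted p = 0.813), and no count of Mfng was found. A count of 0 allows up to 0.043 CPM in OxPAPC and 0.0408 CPM in vehicle, taken as 3 counts over a group.

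Of the 7 genes of ligand ubiquitination and endocytosis, which ligands need in order to pull on the receptor, 1 rose and 2 fell. Neurl1, a ubiquitin ligase of the Neuralized type, had 43 ± 4.45 CPM in OxPAPC and 55.2 ± 4.11 CPM in vehicle (−0.36 ± 0.07, edgeR adjusted p = 0.00101). Its relative Neurl1b was lower too (−0.34 ± 0.11, edgeR adjusted p = 0.0203), and was not called without any 1 of OxPAPC 9, OxPAPC 16, vehicle 1 or vehicle 8 (0.0511 to 0.0669). Mib1, the ligase most needed by ligands in mammals, rose by 0.17 ± 0.05 (edgeR adjusted p = 0.0165), but not without any 1 of OxPAPC 9, OxPAPC 16, vehicle 15 or vehicle 22 (0.054 to 0.0731). The dynamin Dnm2 did not pass (0.07 ± 0.04, edgeR adjusted p = 0.134).

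Among 12 tested genes of receptor traffic and turnover 3 rose and 2 fell. Numbl, a Numb-like adaptor that restrains Notch, averaged 126 ± 9.35 CPM in OxPAPC and 95.5 ± 6.69 CPM in vehicle (SD, n = 4 each; 0.40 ± 0.06, edgeR adjusted p = 8.88e-05). Its relative Numb rose by 0.14 ± 0.05 (edgeR adjusted p = 0.031), a call lost without any 1 of OxPAPC 2, OxPAPC 16, vehicle 1, vehicle 8 or vehicle 22 (0.0642 to 0.109). Cyclin C (Ccnc), which with its kinase marks the receptor's intracellular part for destruction, rose by 0.21 ± 0.06 (edgeR adjusted p = 0.00695). The Deltex ligase Dtx4 was lower in OxPAPC (4.92 ± 0.374 CPM, against 7.58 ± 1.6 CPM in vehicle; −0.61 ± 0.15, edgeR adjusted p = 0.00232), as was Nedd4 (−0.10 ± 0.03, edgeR adjusted p = 0.00411). Itch did not pass (−0.02 ± 0.04, edgeR adjusted p = 0.741), and Dtx1 was too scarce to test.

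Corepressors that RBPJ recruits when Notch is silent had 4 rises and 2 falls among 15 tested genes. The Groucho-type corepressors Tle1 (0.40 ± 0.08, edgeR adjusted p = 0.000616), Tle3 (0.23 ± 0.04, edgeR adjusted p = 9.74e-05) and Tle4 (0.17 ± 0.06, edgeR adjusted p = 0.0417) were higher, as was the histone demethylase Kdm5a (0.25 ± 0.06, edgeR adjusted p = 0.00502). Tle1 had 19.3 ± 1.4 CPM in OxPAPC and 14.6 ± 1.35 CPM in vehicle (SD, n = 4 each), and Tle4 was called only with all libraries or without OxPAPC 16 (0.0513 to 0.125 without any other 1). Fhl1, an abundant LIM protein with an RBPJ-binding isoform, averaged 1478 ± 20.1 CPM in OxPAPC and 1782 ± 33.8 CPM in vehicle (−0.27 ± 0.02, edgeR adjusted p = 2.69e-09). The table does not separate its isoforms. Hdac1 was lower (−0.14 ± 0.04, edgeR adjusted p = 0.0124), a call lost without OxPAPC 9 or without vehicle 1 (0.0561 to 0.0581). Tle5 did not pass (−0.03 ± 0.03, edgeR adjusted p = 0.398).

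Coactivators had 1 rise and 1 fall among 8 tested, both marginal. Snw1 rose by 0.16 ± 0.06 (edgeR adjusted p = 0.0288) and Kat2b was lower (−0.14 ± 0.05, edgeR adjusted p = 0.0456). The first call was lost without any 1 of OxPAPC 9, 16 or 23 or vehicle 1 or 15 (0.0587 to 0.101), and the second without any 1 of OxPAPC 9, 16 or 23 or vehicle 1, 8 or 22 (0.0634 to 0.16). Ep300, the acetyltransferase of the Notch complex, came to 0.11 ± 0.12 (edgeR adjusted p = 0.54). Without OxPAPC 23 and vehicle 15, the libraries low in long transcripts, it was 0.13 and passed (edgeR adjusted p = 0.0154). These were also the lowest libraries of each group for Ep300 itself (110 and 105 CPM), and leaving out both was chosen after seeing the data. Ep300 passed in only this 1 of the 18 alternatives. Its adjusted p ran from 0.0154 to 0.829 over the edgeR, DESeq2 and limma fits.

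Of 4 tested ligands outside the members, Egfl7, a secreted protein that can bind Notch receptors, was higher in OxPAPC (24.7 ± 1.25 CPM, against 19.8 ± 1.76 CPM in vehicle; 0.32 ± 0.07, edgeR adjusted p = 0.00127), and Dner (−0.11 ± 0.07, edgeR adjusted p = 0.267), Dlk2 and Cntn1 did not pass. No count of Dll4, the ligand of arterial endothelium, or Dlk1 was found, and Dll3 and Ccn3 were too scarce to test. Of 5 tested HES, HEY and related repressors outside the members, Hes6, which opposes Hes1, was lower (13.3 ± 1.97 CPM in OxPAPC and 15.9 ± 0.994 CPM in vehicle; −0.25 ± 0.10, edgeR adjusted p = 0.0464). That call held without OxPAPC 9 or OxPAPC 16 and was lost without any 1 of the other 6 libraries (0.0573 to 0.175), with a log2 fold change of −0.16 without OxPAPC 2. Bhlhe40, with the highest CPM of them, did not pass (−0.00091 ± 0.04, edgeR adjusted p = 0.99), nor did Bhlhe41, Hey2 and Hes7. Hes5 had 10 counts over each group, Hes2 had 2 over the OxPAPC and 0 over the vehicle libraries, and Hes3 and Helt had none.

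Genes reported as Notch targets outside the HES and HEY families, all of which many other signals regulate too, went both ways. Of 15 tested, 4 were higher and 4 lower, beside 17.9% higher and 16.4% lower over all tested genes. Myc, the growth-promoting transcription factor, averaged 50.5 ± 2.73 CPM in OxPAPC and 22.3 ± 1.82 CPM in vehicle (SD, n = 4 each; 1.18 ± 0.06, edgeR adjusted p = 7.84e-13). The arterial ephrin Efnb2 (0.42 ± 0.05, edgeR adjusted p = 8.03e-06), the cell cycle inhibitor Cdkn1a (0.25 ± 0.03, edgeR adjusted p = 5.78e-06) and Nfkb2 (0.13 ± 0.04, edgeR adjusted p = 0.0175) were higher too. The Nfkb2 call was lost without OxPAPC 9 or without vehicle 1 (0.0525 to 0.0785). Smooth muscle actin (Acta2) had 3947 ± 56 CPM in OxPAPC and 5094 ± 61.7 CPM in vehicle (−0.37 ± 0.02, edgeR adjusted p = 6.09e-13). The D-type cyclins Ccnd3 (−0.43 ± 0.03, edgeR adjusted p = 1.69e-10) and Ccnd1 (−0.09 ± 0.03, edgeR adjusted p = 0.00693) and the receptor Pdgfrb (−0.21 ± 0.03, edgeR adjusted p = 7.38e-07) were lower. Nrarp, a feedback inhibitor that is among the most direct Notch targets, had 186 counts over the OxPAPC and 209 over the vehicle libraries and did not pass (−0.09 ± 0.19, edgeR adjusted p = 0.75). Snai1 did not pass either (0.04 ± 0.05, edgeR adjusted p = 0.546), and Dtx1 and Il2ra were too scarce to test.

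Some of the calls above were also lost under other processing, each with the range of adjusted p in those fits. With DESeq2, Rfng, Numb, Snw1, Kat2b, Tle4 and Hes6 were not called (0.0572 to 0.0883). With upper-quartile factors in edgeR, Mib1, Numb, Snw1, Tle4 and Nfkb2 were not called (0.0542 to 0.115). On deposited FPKM with limma, Furin, Mib1, Numb, Snw1, Tle4, Hes6 and Nfkb2 were not called with either offset (0.0563 to 0.141). With plain library totals in place of TMM factors, Numb, Snw1 and Tle4 were not called (0.0542 to 0.0657), and without the filter on low counts Numb, Tle4 and Nfkb2 were not (0.0621 to 0.119). Hes6 was not called by limma-voom (0.0631). Without OxPAPC 23 and vehicle 15 together, Rfng, Snw1, Tle4 and Hes6 were not called (0.0671 to 0.119).

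**Figure D5:**
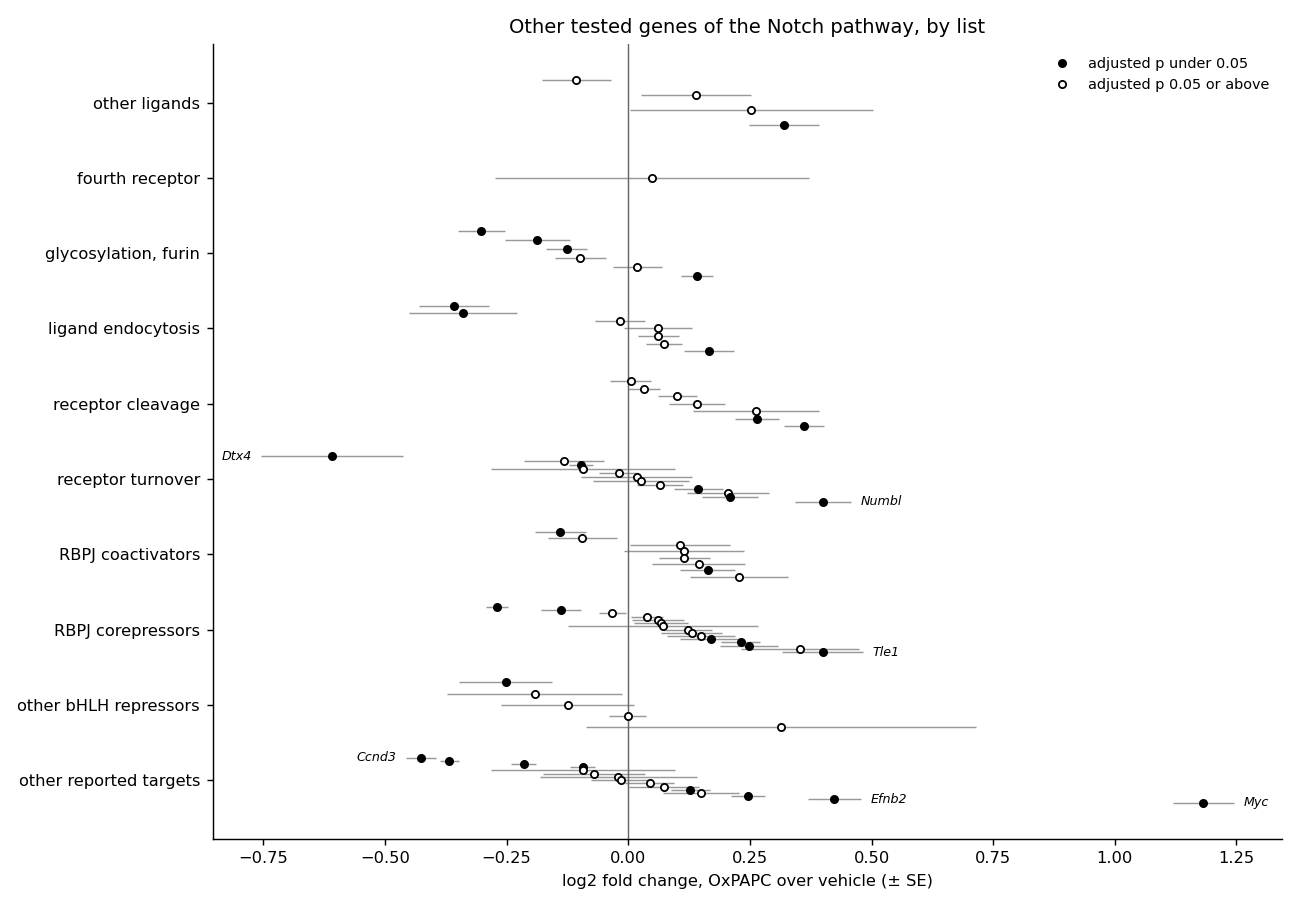
Log2 fold change, OxPAPC over vehicle, with its SE for the tested genes of each list of other Notch pathway genes; filled points have an adjusted p under 0.05 (edgeR) and genes called with more than 0.38 in either direction are named. Most lists hold points on both sides of 0, and Myc (1.18) and Dtx4 (−0.61) lie farthest out among the called genes.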

How the data were processed

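Purified messenger RNA of 8 H9c2 libraries, 4 OxPAPC and 4 vehicle, was sequenced in bulk. The deposited table holds whole-number counts per gene and FPKM made by the authors. The submitters' processing notes name featureCounts 1.5.0-p3, HISAT2 2.0.5 and StringTie 1.3.3b without a role, and no source used here names the genome build or says whether counting used strand. Totals were 15.4 to 21.7 M counts, and 1 line emptied of its values was left out. Counts were tested with edgeR 4.0.16 in R 4.3.3 (quasi-likelihood F test, TMM factors of 0.976 to 1.03, filterByExpr with a minimum of 10 counts), with Benjamini-Hochberg adjustment over 13206 genes and calls at an adjusted p under 0.05. CPM uses the TMM-scaled totals. The fit was tested on simulated data with known changes. Replicate pairs of a group differed by more than sampling noise (chi-square per degree of freedom 2.23 to 9.50 over 12 pairs, and 23.1 to 35.0 over 16 pairs across groups), so no library was counted as a copy of another. P-values measure the spread between these libraries, and the limit for a count of 0 covers counting error only.

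The members and lists were chosen with earlier results of these data known, so the members carry no p-value, and those of the other listed genes come from the fit over all genes and are no independent evidence. All 10 members are named. From each list of other genes, those called are named (at most 6 in each direction, and 1 called gene is not reported here) with the one not called with the highest CPM, those too scarce to test, and Nrarp, Dlk2, Cntn1, Bhlhe41, Hey2 and Hes7 beyond that rule. Alternatives were other scaling factors (RLE, upper quartile, library totals), other filters, DESeq2 1.42.0, limma 3.58.1 (voom, and log2 of FPKM plus 1 or 0.1) and leaving out each library. Leaving out vehicle 15 and OxPAPC 23 together was added after seeing the data. Chromosome numbers and promoters come from RefSeq GRCr8, matched by gene ID (91.9% of the table's IDs); coordinates of genes are the count table's own, and those of promoters are GRCr8.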

Additional observations from a re-analysis of the deposited data

Results flagged for a closer look

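In 3 of 104 groups of 4 libraries, 1 library stood farther from the other 3 than Dixon's 95% limit allows; chance alone flags about 1 in 20 groups, which is more than were found. Snw1, a coactivator, had 37.7 CPM in OxPAPC 2, against 42.3 to 43.2 CPM in the other OxPAPC libraries. Nfkb2 had 70.6 CPM in vehicle 1, against 72.5 to 72.9 CPM in the other vehicle libraries. Ccnd3 had 195.5 CPM in OxPAPC 9, against 204.2 to 205.7 CPM in the other OxPAPC libraries. No member was among them.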

How the results depend on the processing

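As a description, the log2 fold changes of Dll1, Jag1, Notch1 and Rbpj kept their sign in each of the 18 alternatives. With limma on log2(FPKM + 0.1), 11 other pathway genes were called higher instead of 17; the cause was not tested. Leaving out 1 library gave 9 (without vehicle 1) to 13 lower instead of 15, with fewer samples in the fit. Among the tested members and the named pathway genes, the only genes refitted one by one, signs turned for 6, none of them called. The log2 fold change of Notch2 was −0.0169 without vehicle 15 and ranged to 0.17 without OxPAPC 23. Likewise the log2 fold change of Notch4 was −0.13 without OxPAPC 2, −0.0162 without vehicle 1, −0.0915 without vehicle 8 and 0.16 without vehicle 15. Over the 17 alternatives in which Notch4 was tested, it ranged from −0.13 to 0.19. In turn the log2 fold change of Lfng was −0.0187 with upper-quartile factors, −0.0109 with log2(FPKM + 1), −0.0118 with log2(FPKM + 0.1) and −0.0245 without OxPAPC 23 and vehicle 15, and ranged over the libraries left out from −0.0263 (OxPAPC 23) to 0.0538 (OxPAPC 9). With −0.0056, the log2 fold change of Ncstn fell below 0 with upper-quartile factors. The log2 fold change of Itch was −0.0443 without OxPAPC 2 and 0.0066 without OxPAPC 23, and over all 18 alternatives it ranged from −0.0578 to 0.0066. The values of the log2 fold change of Bhlhe40 ranged from −0.0184 to 0.016 (without OxPAPC 9) over the libraries left out singly. Among these were −0.0157 without vehicle 15, 0.000515 without vehicle 1 and 0.0123 without vehicle 8. Over all 18 alternatives Bhlhe40 ranged from −0.0384 to 0.016. No paired analysis was possible because the groups share no replicate number and the labels tie no OxPAPC library to a vehicle library. Low counts limit what can be said of Jag2, Dll1 and Heyl.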
